A study of Mus musculus with 12 samples.

Results

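Collagens are secreted structural proteins whose chains wind into helices and assemble outside the cell. Fibrillar collagens form rope-like fibrils, basement membrane collagens of type IV form sheets around vessels and tissues, beaded filament collagens of type VI link cells to the matrix, and FACIT collagens sit on the surface of fibrils. In the adult brain the classic fibrils of types I and III are largely confined to vessels and meninges, whereas type IV and other collagens are part of the matrix that contacts neural stem cells. The expression of the collagen genes was followed in cultured adult mouse neural stem/progenitor cells (aNSPCs) with and without NAD+ (nicotinamide adenine dinucleotide), a redox cofactor.

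A gene counted as a collagen gene when its symbol was Col, a number, the letter a and a number, and 44 of the 55401 genes in both deposited tables met this rule. The cells came from forebrains of C57BL/6 mice that were 8 to 10 weeks old and were grown with the growth factors EGF and FGF-2. RNA-seq covered 4 groups of 3 samples: Ctrl and 1 mM NAD+ under proliferating conditions, and Ctrl and 1 mM NAD+ under differentiation conditions, in which both groups also received 1 µM retinoic acid and 5 µM forskolin. The labels name no genetic change in any group, and the study describes the samples of a group as biological repeats without saying whether they came from separate cultures or animals, so the p-values below measure the spread between these samples. In bulk RNA, fewer cells of a type and less RNA per cell cannot be told apart.

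Levels were read as FPKM (sequenced fragments divided by transcript length and by the number mapped in the sample), so levels of different genes could be compared per length. The read depth is unknown, and each sample's FPKM values summed to between 308828 and 363330, with the highest sum in Ctrl replicate 1 under proliferating conditions. Fold changes are log2 differences of FPKM with 0.1 added, tested across all genes by limma with Benjamini-Hochberg adjustment, and a gene was called at an adjusted p under 0.05. The neural stem/progenitor list summed to between 1100 and 3130 FPKM in every sample, while the 8 endothelial markers together reached at most 0.90 FPKM and the 7 microglial markers at most 0.37. Of the fibroblast markers, Twist1 was listed at 0 in all 12 samples, Dcn and Lum stayed at or below 0.07 FPKM and Dpt at or below 0.16. The other 4 of the 8 were present, Fbln1 at 2.29 to 13.6 FPKM, Foxc1 at 2.64 to 5.99, Pdgfra at 1.86 to 4.90 and Thy1 at 1.35 to 8.92.

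Of the 44 collagen genes, 20 had a mean of at least 1 FPKM in at least 1 group. This number was 13 in proliferating Ctrl, 12 in proliferating NAD+, and 19 in each of the differentiation groups. Col6a5 was listed at 0 in all samples, and 10 genes, Col6a5 included, stayed under 0.1 FPKM throughout. The classic fibril genes were among the lowest, with Col1a1 between 0.01 and 0.16 FPKM, Col1a2 at most 0.04 and Col3a1 at most 0.10. The summed level of all 44 genes was 75.0 ± 9.53 FPKM (SD, n = 3) in proliferating Ctrl, 93.1 ± 9.20 in proliferating NAD+, 170.0 ± 8.36 in differentiation Ctrl and 191 ± 3.35 in differentiation NAD+. The largest part of the last sum came from Col4a5, which alone made up 12.1% of the collagen FPKM in proliferating Ctrl, 12.9% in proliferating NAD+, 22.6% in differentiation Ctrl and 28.6% in differentiation NAD+.

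**Figure D1:**
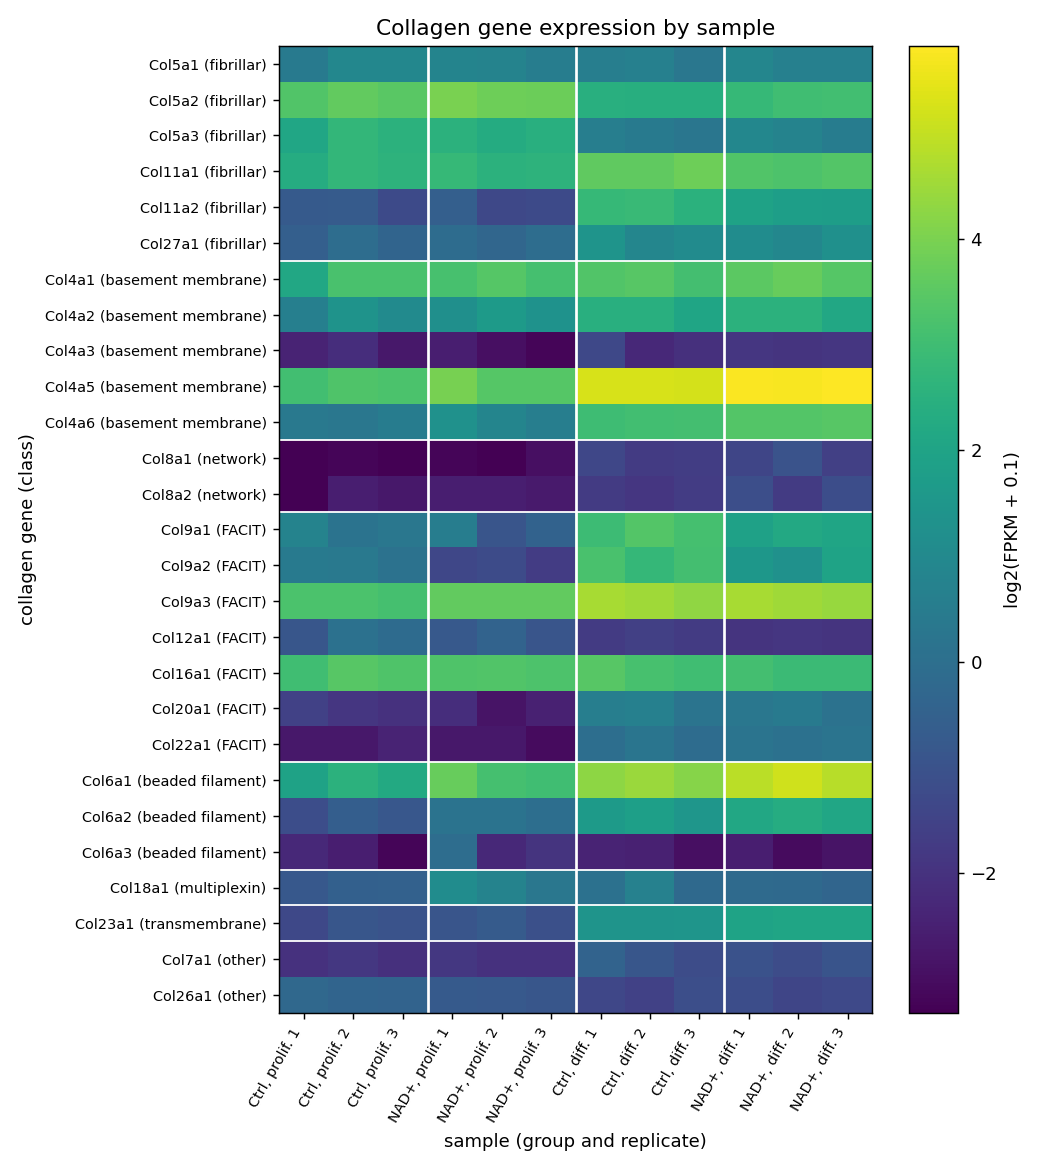
Each row is a collagen gene with its class and each column a sample; the colour is log2(FPKM + 0.1), and white lines separate groups and classes. Col4a5 was the brightest row in the differentiation columns, at 53.0 to 56.6 FPKM in the NAD+ samples, whereas Col5a2 had higher means in the proliferating groups. Col9a1, Col9a2 and Col11a2 darkened from differentiation Ctrl to differentiation NAD+.

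Several collagen genes sit side by side in the mouse genome (GRCm38). Col4a6 (chrX:141165403-141474076, minus strand) and Col4a5 (chrX:141475385-141689234, plus strand) start back to back with 1308 bases between them. Col4a4 and Col4a3 start back to back on chromosome 1 with 71 bases between them, and the starts of Col4a1 and Col4a2 on chromosome 8 overlap by 22 bases. Col6a2 and Col6a1 lie on the same strand of chromosome 10, and Col3a1 and Col5a2 end towards each other on chromosome 1, 24614 bases apart. Reads from the shared bases cannot be assigned to a strand with certainty, because the sources used here do not state whether strand was used in counting. The same holds for Col9a3, whose exons overlap those of Tcfl5 on the other strand. Exons of Col4a2, Col4a3, Col5a1 and Col22a1 also overlap those of noncoding genes on the other strand. Those of Col20a1 and Col7a1 overlap genes on the same strand, where counting by strand would not separate the reads.

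Upstream sequences are shown for 5 of the genes called with NAD+ under differentiation conditions, and not for the other called genes. They are the back-to-back pair Col4a5 and Col4a6 and the trio Col9a1, Col9a2 and Col11a2, whose products occur together in cartilage-type fibrils. The sequences are from RefSeq (GRCm38.p6), 5′ to 3′ on the strand of the gene, and end before the start of transcription or the nearest annotated exon. Capitals mark any of 4 motifs on either strand. These are ACAAT, the core bound by SOX factors, ACAAAG, the core bound by TCF/LEF factors, GGGCGG, which Sp-family factors bind, and TATAAA, which marks some core promoters. The windows are chrX:141475169-141475384 (plus) for Col4a5, chrX:141474077-141474326 (minus) for Col4a6, chr1:24177360-24177609 (plus) and chr1:24194953-24195186 (plus) for the upstream and downstream starts of Col9a1, chr4:121039316-121039384 (plus) for Col9a2 and chr17:34038888-34039137 (plus) for Col11a2.
Col4a5: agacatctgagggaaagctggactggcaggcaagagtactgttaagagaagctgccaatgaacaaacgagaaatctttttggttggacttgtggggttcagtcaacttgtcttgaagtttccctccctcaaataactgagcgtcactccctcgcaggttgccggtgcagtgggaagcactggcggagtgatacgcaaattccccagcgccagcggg
Col4a6: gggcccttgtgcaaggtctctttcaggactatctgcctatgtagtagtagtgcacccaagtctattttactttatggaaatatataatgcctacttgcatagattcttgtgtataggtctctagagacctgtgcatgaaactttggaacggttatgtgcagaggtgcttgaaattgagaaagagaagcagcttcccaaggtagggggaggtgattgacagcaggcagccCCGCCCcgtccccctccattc
Col9a1 upstream start: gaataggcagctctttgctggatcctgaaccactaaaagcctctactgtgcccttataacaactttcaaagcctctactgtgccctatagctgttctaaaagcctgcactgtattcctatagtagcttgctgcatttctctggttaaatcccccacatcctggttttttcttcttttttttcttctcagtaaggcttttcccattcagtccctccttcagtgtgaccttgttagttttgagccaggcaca
Col9a1 downstream start: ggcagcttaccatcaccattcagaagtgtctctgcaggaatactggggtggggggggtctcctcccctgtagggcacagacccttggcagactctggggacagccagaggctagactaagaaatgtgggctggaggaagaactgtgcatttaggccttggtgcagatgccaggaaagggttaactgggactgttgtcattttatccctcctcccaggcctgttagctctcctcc
Col9a2: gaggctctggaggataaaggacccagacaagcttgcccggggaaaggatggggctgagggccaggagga
Col11a2: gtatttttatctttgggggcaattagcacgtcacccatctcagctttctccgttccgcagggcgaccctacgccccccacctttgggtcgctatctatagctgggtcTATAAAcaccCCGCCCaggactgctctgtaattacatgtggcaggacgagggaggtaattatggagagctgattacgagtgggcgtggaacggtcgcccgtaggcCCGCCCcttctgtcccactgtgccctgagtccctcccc

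In these windows GGGCGG was found at 1 place for Col4a6 and at 2 places for Col11a2, and TATAAA was found once for Col11a2. Neither of the strings ACAAT and ACAAAG was found. The stretches searched differed in length, with 69 bases for Col9a2, 216 for Col4a5, 234 for the downstream Col9a1 start and 250 for the others. The Col9a1 windows held no CG dinucleotide, against 14 in the Col11a2 window of like length. RefSeq windows of 250 bases before the start were at hand for 35 of the 44 collagen genes (38 windows). GGGCGG occurred in 57.9% of these and in 32.7% of all 32851 windows, TATAAA in 13.2% and 12.4%, ACAAAG in 10.5% and 16.5%, and ACAAT in 5.26% and 27.7%. The median count of CG dinucleotides was 9.5 in the collagen windows and 6 in all windows, and the shares were not adjusted for base composition. A match is a string of letters and was not tested as a binding site.

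NAD+ was compared with Ctrl under differentiation conditions to ask how added NAD+ changes the cells while they differentiate. Of 28 collagen genes tested, 5 rose and 4 fell. Among all 19611 genes tested 2.27% rose and 4.65% fell, so the collagen genes passed in both directions at shares above this background, 5 and 4 of 28. The members that rose were the basement membrane genes Col4a5 and Col4a6, the beaded filament gene Col6a1, the fibrillar gene Col5a2 and the transmembrane gene Col23a1. Those that fell were Col9a1, Col9a2, Col11a1 and Col11a2. Under median-ratio scaling or quantile normalization the counts were 6 and 3, with Col6a2 added and Col11a1 lost. Over all genes, 445 of 1357 calls were rises with the deposited values and 613 of 1145 with median-ratio scaling. The median log2 fold change of the 28 genes was 0.054, against -0.085 over all genes tested.

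Col4a5 encodes a type IV chain of basement membranes. It stood at 38.6, 38.9 and 37.5 FPKM in Ctrl and at 54.7, 53.0 and 56.6 FPKM with NAD+. All 3 NAD+ samples lay above all Ctrl samples, and the level rose by 0.51 on the log2 scale (SE 0.046, adjusted p = 0.00494, limma). Its back-to-back neighbour Col4a6, another type IV chain, was at 7.91, 8.30 and 8.40 FPKM in Ctrl and at 10.3, 10.3 and 10.9 FPKM with NAD+. The groups did not overlap, and the rise was 0.35 (SE 0.060, adjusted p = 0.0236, limma), a call that was lost when any 1 of the 6 samples was left out (adjusted p from 0.0558 to 0.0865). The ratio of Col4a5 to Col4a6 FPKM was 4.67 ± 0.208 in Ctrl and 5.22 ± 0.0866 with NAD+ (SD, n = 3). The other type IV genes did not pass. Col4a1, which with Col4a2 builds the most widespread type IV network, was 0.27 higher (adjusted p = 0.226), Col4a2 was 0.096 higher (adjusted p = 0.752), and Col4a3 and Col4a4, chains of specialised basement membranes, were at most 0.30 FPKM in every sample.

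Col6a1 and Col6a2 encode chains of type VI collagen. Col6a1 was at 19.2, 21.7 and 17.8 FPKM in Ctrl and at 29.5, 35.5 and 28.9 FPKM with NAD+. Every NAD+ sample was above every Ctrl sample, and the rise was 0.67 (SE 0.106, adjusted p = 0.0196, limma); it was not called without Ctrl replicate 1 (adjusted p = 0.0752) or without Ctrl replicate 3 (adjusted p = 0.0635). Col6a2 was at 3.04, 3.48 and 2.67 FPKM in Ctrl and at 4.41, 4.93 and 4.11 FPKM with NAD+. Its groups did not overlap either, yet the difference of 0.54 (SE 0.124) just missed the threshold (adjusted p = 0.0532, limma). It passed under median-ratio scaling (adjusted p = 0.0378), quantile normalization (adjusted p = 0.0383) and a minimum mean of 1 FPKM (adjusted p = 0.0362). The third chain of the classic type VI trimer, Col6a3, was at most 0.09 FPKM in these 6 samples, and Col6a4, Col6a5 and Col6a6 were at most 0.02 FPKM in them.

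Col5a2, a type V chain that is built into fibrils, was at 5.37, 5.22 and 5.24 FPKM in Ctrl and at 6.90, 7.97 and 8.18 FPKM with NAD+. The Ctrl samples were within 0.15 FPKM of each other and all lay below the NAD+ samples, and the rise was 0.53 (SE 0.083, adjusted p = 0.0191, limma). The call held without NAD+ replicate 1 and was lost without any 1 of the other 5 samples (adjusted p from 0.0593 to 0.0684). Its partner chains did not pass, with Col5a1 0.21 higher (adjusted p = 0.425) and Col5a3 0.30 higher (adjusted p = 0.294). Col23a1 encodes a collagen that spans the cell membrane. It was at 2.57, 2.59 and 2.61 FPKM in Ctrl and at 3.89, 4.05 and 4.03 FPKM with NAD+. The groups were well apart, and the rise of 0.60 (SE 0.075, adjusted p = 0.0104, limma) was called also without any 1 of the 6 samples, as was that of Col4a5.

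Collagens II, IX and XI make up the thin fibrils of cartilage and of the vitreous, with type IX on their surface. Col9a1, a type IX chain, was at 7.66, 10.3 and 8.68 FPKM in Ctrl and at 3.63, 4.44 and 4.08 FPKM with NAD+. Each NAD+ sample was below each Ctrl sample, and the level fell by 1.11 on the log2 scale (SE 0.128, adjusted p = 0.00882, limma), called without any 1 of the samples as well. Col9a2, the next chain of the trimer, was at 9.13, 6.70 and 8.36 FPKM in Ctrl and at 2.80, 2.36 and 3.87 FPKM with NAD+. The groups did not overlap, and it fell by 1.41 (SE 0.199, adjusted p = 0.0144, limma), though not past the threshold without Ctrl replicate 1 (adjusted p = 0.0617) or Ctrl replicate 3 (adjusted p = 0.0567). Col9a3, which completes the trimer, was at 24.4, 22.9 and 19.9 FPKM in Ctrl and at 24.4, 23.1 and 21.5 FPKM with NAD+. These groups overlapped, with a difference of 0.041 (95% interval -0.17 to 0.26, adjusted p = 0.823), and the overlap with Tcfl5 applies to this gene. The ratio of Col9a3 to Col9a2 was 2.82 ± 0.540 in Ctrl and 8.02 ± 2.21 with NAD+, and the ratio of Col9a3 to Col9a1 was 2.57 ± 0.529 and 5.73 ± 0.863 (SD, n = 3).

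The type XI genes followed in the same direction as Col9a1 and Col9a2. Col11a2 was at 6.86, 7.28 and 5.63 FPKM in Ctrl and at 3.74, 3.41 and 3.31 FPKM with NAD+. No samples overlapped, and the level fell by 0.89 (SE 0.114, adjusted p = 0.0113, limma); without Ctrl replicate 1 the adjusted p was 0.0550. Col11a1 was at 12.1, 12.1 and 13.8 FPKM in Ctrl and at 10.1, 9.60 and 10.3 FPKM with NAD+. The groups were apart, but the fall of 0.33 (SE 0.073, adjusted p = 0.0480, limma) was not called without any 1 sample (adjusted p from 0.0993 to 0.115), under median-ratio scaling (adjusted p = 0.134) or under quantile normalization (adjusted p = 0.125). Col2a1, the type II gene, was at 0.13 to 0.42 FPKM in all 12 samples and 0.66 lower with NAD+ without passing (adjusted p = 0.213). The 6 genes of types II, IX and XI summed to 58.8 ± 2.01 FPKM in Ctrl and 43.7 ± 1.00 FPKM with NAD+ (SD, n = 3). This set holds the called genes Col9a1, Col9a2, Col11a1 and Col11a2, so its sum adds no support to their calls. Under proliferating conditions the same sum was higher with NAD+, at 19.4 to 21.7 FPKM against 17.1 to 18.9 in Ctrl.

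**Figure D2:**
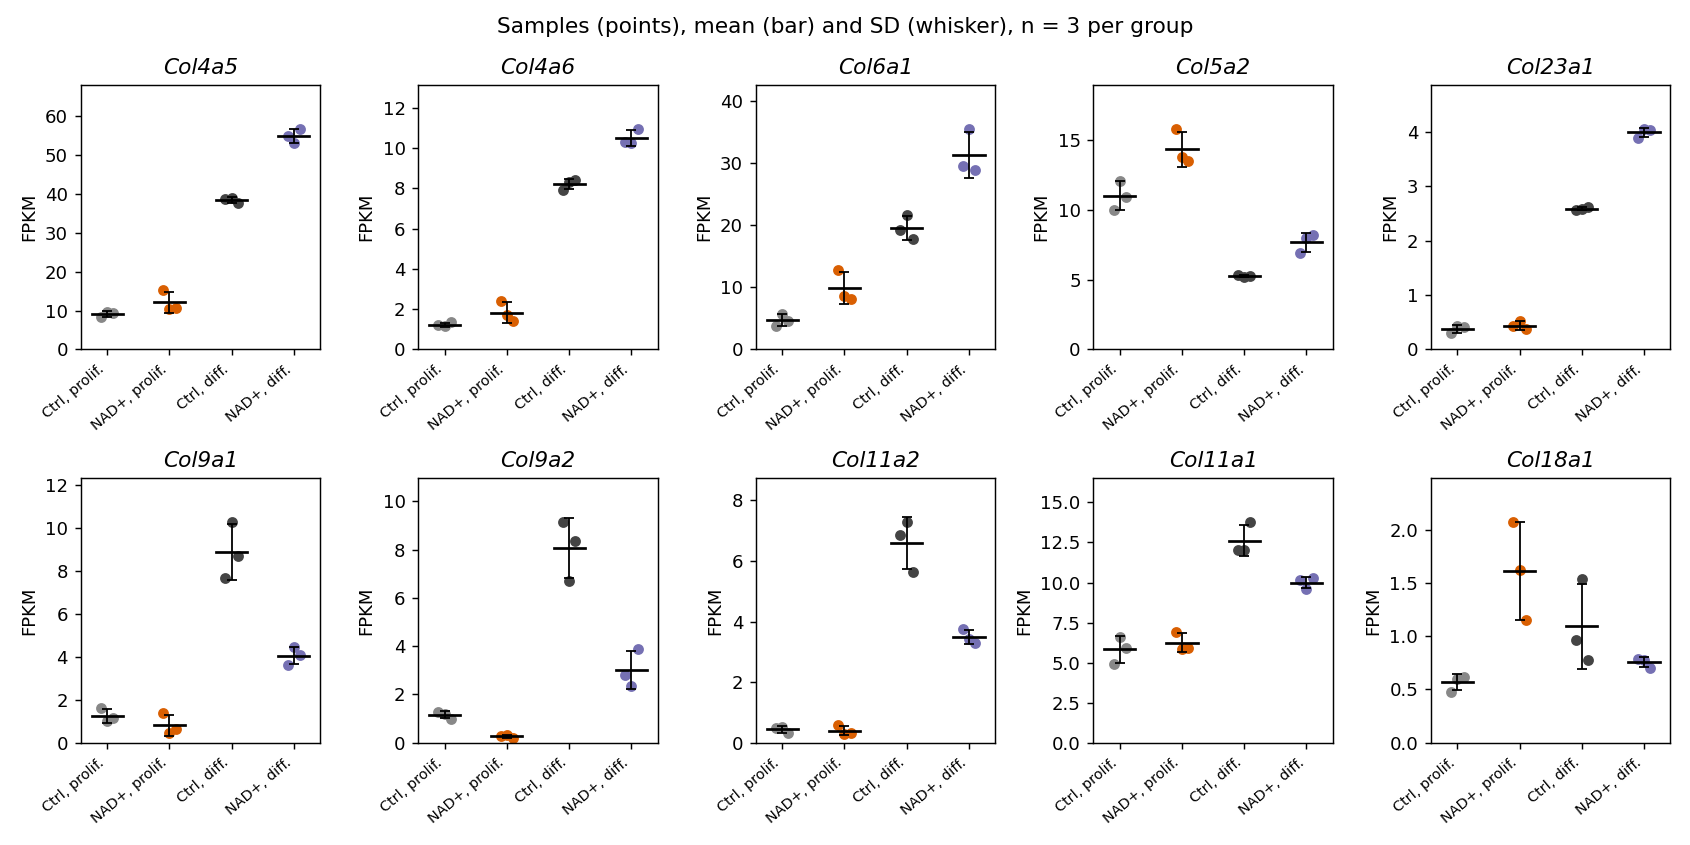
Points are samples, bars are means and whiskers are the SD of 3 samples per group, on an FPKM axis that starts at 0 in each panel. Under differentiation conditions Col4a5, Col4a6, Col6a1, Col5a2 and Col23a1 lay higher with NAD+ in every sample, and Col9a1, Col9a2, Col11a2 and Col11a1 lay lower in every sample; Col18a1 overlapped there but not under proliferating conditions.

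The remaining tested genes did not pass in this comparison. Col16a1, a FACIT collagen, had means of 9.28 ± 1.36 FPKM in Ctrl and 7.77 ± 0.582 with NAD+ (SD, n = 3; adjusted p = 0.262). Col27a1, a fibrillar collagen of cartilage, had means of 2.10 and 2.08 FPKM (adjusted p = 0.988), and Col20a1, another FACIT gene, 1.31 and 1.13 FPKM (adjusted p = 0.555). Col22a1, a FACIT of tissue junctions whose exons overlap an antisense gene, had means of 0.933 and 1.01 FPKM (adjusted p = 0.694). Col18a1, whose product carries endostatin, had means of 1.09 ± 0.397 and 0.757 ± 0.0493 FPKM (adjusted p = 0.352). The network genes Col8a1 and Col8a2, found around vessels and in the cornea, were between 0.17 and 0.41 FPKM. Col7a1, of the anchoring fibrils of skin, was between 0.34 and 0.65 FPKM, Col26a1 between 0.24 and 0.36, and Col12a1 between 0.16 and 0.23. Counted without regard to a p-value, 6 collagen genes lay higher in every NAD+ sample than in any Ctrl sample and 6 lay lower, against 9.68% and 21.1% of all genes tested. By the cutoff of the study (unadjusted p under 0.05 and more than a 2-fold ratio of mean FPKM), Col9a1 and Col9a2 were the members that changed, and 4.05% of all genes did.

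By class, where 2.27% of all genes rose and 4.65% fell, 2 of 6 basement membrane genes tested rose and none fell. Of the 7 fibrillar genes tested, 1 rose and 2 fell. Of the 7 FACIT genes tested none rose and 2 fell. Of the beaded filament genes 1 of 2 rose, the 1 transmembrane gene tested rose, and none of the 2 network, 1 multiplexin and 2 other genes passed. The summed level of the basement membrane genes was 61.5 ± 2.51 FPKM in Ctrl and 82.5 ± 0.268 with NAD+, and that of the beaded filament genes 22.7 ± 2.38 and 35.8 ± 4.02. The fibrillar sum was 29.5 ± 0.398 in Ctrl and 26.6 ± 0.455 with NAD+, and the FACIT sum 51.1 ± 3.68 and 40.1 ± 1.35 (SD, n = 3). None of these 4 sums overlapped between the groups. The sums hold the called genes, among them Col4a5 (means of 38.3 and 54.8 FPKM) and Col6a1 (19.6 and 31.3). The FACIT sum holds Col9a1 (8.86 and 4.05) and Col9a2 (8.06 and 3.01). The sums therefore do not show that a class moved as a whole.

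**Figure D3:**
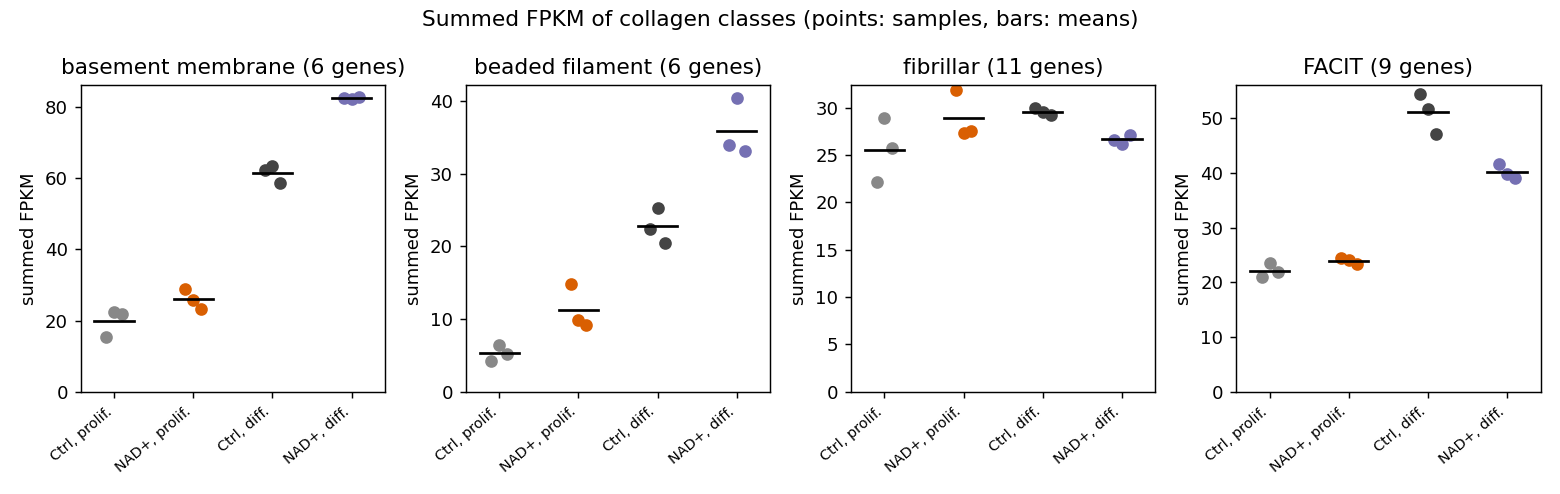
Points are the summed FPKM of a class in each sample and bars are group means, on axes that start at 0. With NAD+ under differentiation conditions, basement membrane genes lay at 82.2 to 82.8 FPKM against 58.6 to 63.4 in Ctrl, and FACIT genes at 39.0 to 41.6 against 47.1 to 54.4.

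Markers of cell types moved in the same comparison. Of the 6 astrocyte markers, Gfap, the glial filament gene, rose by 0.72 (adjusted p = 0.00613, limma) and the glutamate transporter Slc1a2 by 0.26 (adjusted p = 0.0366), whereas Aldh1l1 fell by 0.61 (adjusted p = 0.00494). Among the stem/progenitor markers, Vim, Sox9 and Slc1a3 rose and Pax6 fell. The astrocyte list summed to between 995 and 1080 FPKM in Ctrl and to between 1310 and 1440 with NAD+. Most of this sum was Gfap, with means of 595 FPKM in Ctrl and 977 with NAD+. Of the 6 astrocyte markers 3 lay higher and 3 lower, with lower means for Aldh1l1 (93.5 and 61.3 FPKM), Gja1 (174 and 127) and Aqp4 (34.8 and 27.8). The oligodendrocyte lineage list summed to between 448 and 459 in Ctrl and to between 338 and 371 with NAD+. Of the 8 fibroblast and meninges markers, Fbln1 fell by 0.84 (adjusted p = 0.0126), and the list summed to 14.8 to 15.6 FPKM in Ctrl and 10.9 to 11.6 with NAD+. The pericyte and smooth muscle list summed to 1.94 to 2.25 FPKM in Ctrl and 2.41 to 2.63 with NAD+, and of its 6 genes tested 3 lay higher and 3 lower, with 1 called. The part of these shifts in the collagen changes was not tested.

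Genes that process or bind collagen are read against the 2.27% of all genes that rose and the 4.65% that fell. Of 17 genes for hydroxylation and folding that were tested, P3h4, which takes part in the hydroxylation of collagen lysines, fell from 9.09 ± 0.815 to 6.83 ± 0.208 FPKM (SD, n = 3; adjusted p = 0.0357, limma), and none rose. None of the 5 propeptide cleavage genes and none of the 3 crosslinking genes tested passed. Among 8 collagen receptor and uptake genes tested, the integrin gene Itga2 fell from 6.70 ± 0.515 to 4.54 ± 0.520 FPKM (adjusted p = 0.0331), and its partner Itgb1 rose from 144 ± 3.06 to 164 ± 0.727 FPKM (adjusted p = 0.0467). Ddr1, a collagen-binding receptor kinase, was the most abundant receptor in these samples, at 196.8 to 225.8 FPKM, and did not pass (adjusted p = 0.203).

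The same comparison under proliferating conditions asked what NAD+ changes in dividing cells. None of the 25 collagen genes tested was called by limma, where 0.145% of all 18597 genes were. At an unadjusted p under 0.05, 8 of the 25 lay below the threshold, while 15.4% of all genes did. The median log2 fold change of the 25 genes was 0.10, against 0.072 over all genes. In 7 collagen genes every NAD+ sample was above every Ctrl sample and in 3 every NAD+ sample was below, against 15.5% and 8.59% of all genes tested.

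Col9a2 had the smallest p of the 25. It was at 1.28, 1.21 and 1.00 FPKM in Ctrl and at 0.29, 0.33 and 0.21 FPKM with NAD+. The groups were far apart, with a difference of -1.75 (SE 0.224), but the adjusted p of 0.0583 missed the threshold in limma; it passed with 1 added before log2 (adjusted p = 0.0451) and under quantile normalization (adjusted p = 0.0499). Its trimer partner Col9a3 was at 9.42, 9.21 and 8.59 FPKM in Ctrl and at 12.2, 12.4 and 12.4 FPKM with NAD+. The groups did not overlap here either, in the other direction (0.44, SE 0.081, adjusted p = 0.103, limma). The ratio of Col9a3 to Col9a2 was 7.85 ± 0.650 in Ctrl and 46.1 ± 11.2 with NAD+ (SD, n = 3). Col9a1 was at 1.60, 1.01 and 1.13 FPKM in Ctrl and at 1.36, 0.43 and 0.64 FPKM with NAD+, and its groups overlapped (-0.67, adjusted p = 0.446).

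Col18a1 was at 0.48, 0.60 and 0.62 FPKM in Ctrl and at 2.07, 1.62 and 1.15 FPKM with NAD+. No samples overlapped, and the difference was 1.33 (SE 0.247, adjusted p = 0.103, limma). Col6a1 was at 3.79, 5.74 and 4.63 FPKM in Ctrl and at 12.9, 8.68 and 8.06 FPKM with NAD+ (1.04, SE 0.221, adjusted p = 0.126). Col6a2 was at 0.35, 0.56 and 0.46 FPKM in Ctrl and at 1.02, 1.01 and 0.90 FPKM with NAD+ (0.97, SE 0.217, adjusted p = 0.134). Both type VI chains lay higher in every NAD+ sample without passing the test. By the cutoff of the study 4 members differed, Col18a1, Col6a1 and Col6a2 higher and Col9a2 lower, and 3.01% of all genes tested did.

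Among the others, Col5a2 was at 10.0, 12.1 and 10.97 FPKM in Ctrl and at 15.8, 13.8 and 13.5 FPKM with NAD+ (0.38, SE 0.108, adjusted p = 0.198). Col4a5 was at 8.23, 9.69 and 9.26 FPKM in Ctrl and at 15.2, 10.5 and 10.6 FPKM with NAD+ (0.39, SE 0.164, adjusted p = 0.322), and Col4a6 had means of 1.23 ± 0.104 and 1.83 ± 0.519 FPKM (adjusted p = 0.336). NAD+ replicate 1 held the highest value of these 6 samples for Col4a5, Col4a6, Col5a2, Col6a1, Col18a1 and Col6a3. For Col6a3 it stood alone, at 0.87 FPKM against at most 0.16 FPKM in the other 11 samples. Col4a1 was at 4.40 FPKM in Ctrl replicate 1 and between 8.69 and 10.4 FPKM in the other 5 samples. Col26a1 was at 0.66 to 0.76 FPKM in Ctrl and 0.45 to 0.50 FPKM with NAD+ (adjusted p = 0.320). The means of Col16a1 (9.52 and 9.83 FPKM), Col11a1 (5.83 and 6.23), Col5a3 (5.50 and 5.32), Col4a2 (1.99 and 2.59), Col5a1 (1.60 and 1.54), Col27a1 (0.707 and 0.810) and Col12a1 (0.737 and 0.527) differed by less than would pass. In these samples the stem/progenitor list summed to 2890 to 3130 FPKM in Ctrl and 1870 to 2370 with NAD+, and the oligodendrocyte lineage list to 1260 to 1380 and 1010 to 1040. Most of the stem/progenitor sum was Fabp7, a fatty acid binding protein gene, with means of 2110 and 1320 FPKM (adjusted p = 0.157, limma), whereas the means of Mki67 (33.1 and 43.0) and Nes (68.8 and 82.0) were higher with NAD+ and did not pass either. Their part in the collagen values was not tested. No processing or receptor gene was called here.

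**Figure D4:**
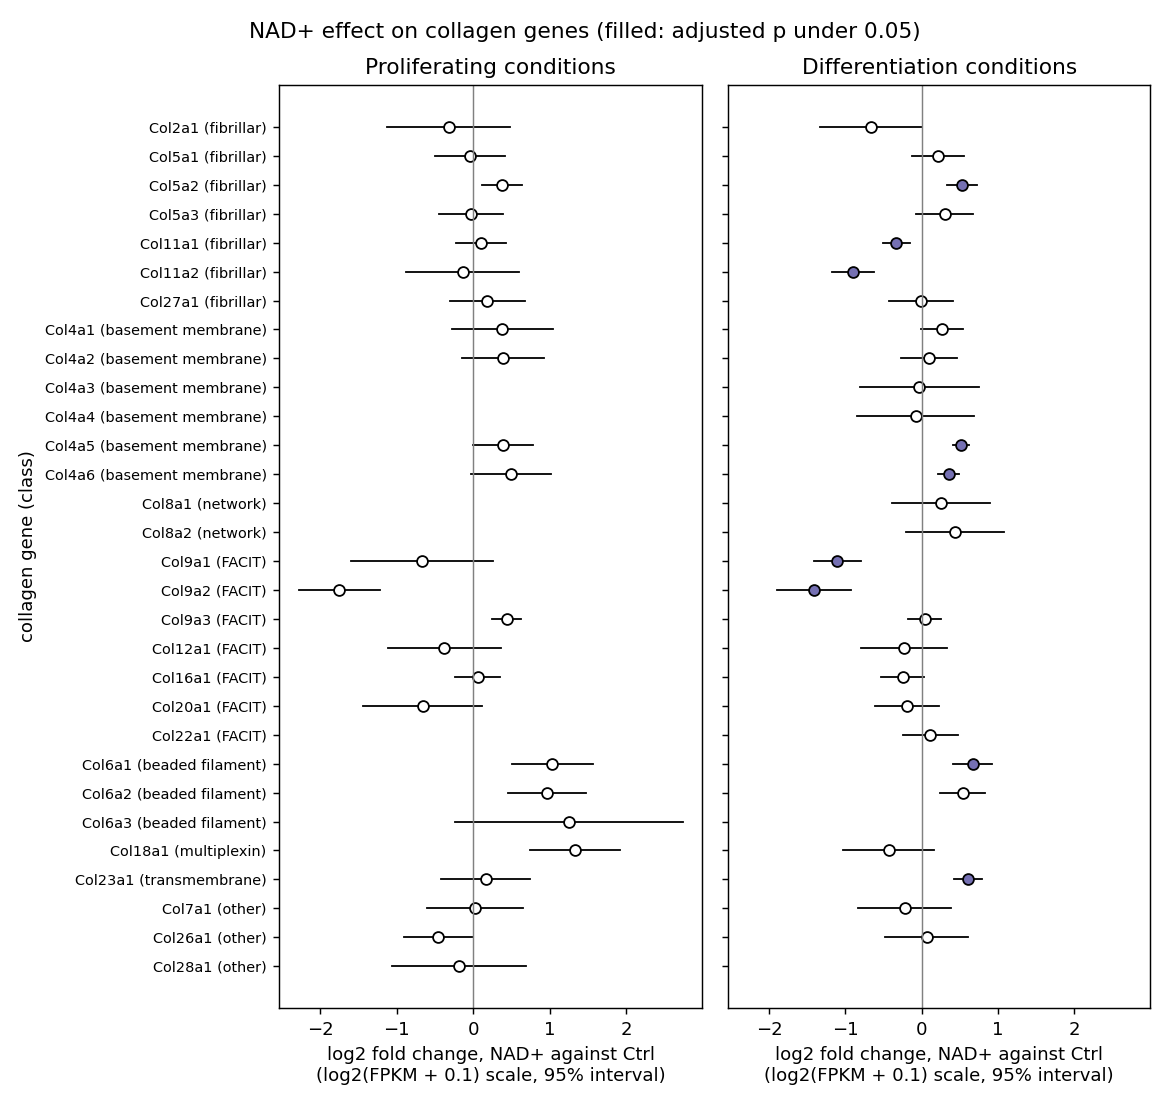
Points are log2 fold changes of NAD+ against Ctrl on the log2(FPKM + 0.1) scale with 95% intervals, for collagen genes tested under proliferating (left) or differentiation (right) conditions; filled points had an adjusted p under 0.05. There are 9 filled points on the right and none on the left, where Col9a2 (-1.75) and Col18a1 (1.33) lie farthest out.

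Whether the NAD+ effect differed between the conditions was tested as a difference of differences over all 12 samples. None of 29 collagen genes was called by limma, where 0.467% of all genes were, and 4 had an unadjusted p under 0.05 (15.5% of all genes did). So a call under differentiation conditions alone does not show that the effect was particular to them. Col18a1 came nearest, with an NAD+ effect 1.76 log2 units lower under differentiation conditions (SE 0.360, adjusted p = 0.0666). The others were Col9a3 (-0.40, adjusted p = 0.160), Col11a1 (-0.43, adjusted p = 0.236) and Col11a2 (-0.76, adjusted p = 0.293). The median of this difference over all genes was -0.155, and -0.015 under median-ratio scaling, and relative to the median the Col18a1 value was -1.61. For Col9a2 the 2 effects were -1.75 and -1.41, and for Col4a5 0.39 and 0.51.

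Differentiation and proliferating conditions were then compared within Ctrl and within NAD+. The values of each condition stand in a table of their own, and the sources used here do not state whether the tables were scaled together. Retinoic acid, forskolin, medium and condition cannot be told apart. In Ctrl, 18 of 29 collagen genes tested were higher under differentiation conditions and 4 were lower, where 25% and 31.6% of all genes were. In NAD+, 18 were higher and 7 lower, against 20.8% and 37.6% of all genes. Col8a1, Col8a2 and Col22a1, counted as higher in both, and Col4a3, higher in NAD+, had proliferating means under 0.1 FPKM. They reached the minimum for testing only through the differentiation samples, and Col6a3, lower in NAD+, only through the proliferating NAD+ samples. The filter favoured these directions, so these genes add no support to the counts. The median log2 difference of the collagen genes, with these genes included, was 1.14 in Ctrl and 0.99 in NAD+. That of all genes was -0.060 and -0.20 (0.059 and 0.053 under median-ratio scaling). Of the 22 genes called in both, 17 were higher in both, and Col18a1 alone differed in sign. The 17 include Col8a1, Col8a2 and Col22a1, and the share of all genes called in both was not counted. Under median-ratio scaling the counts in NAD+ were 19 higher and 4 lower, and over all genes 5614 of 11002 calls were higher, against 4050 of 11386 with the deposited values.

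The type XI gene Col11a2 had the largest rise in Ctrl, from 0.32 to 0.51 FPKM in proliferating samples to 5.63 to 7.28 FPKM in differentiation samples (3.63, SE 0.225, adjusted p = 2.62e-07, limma). In NAD+ it went from 0.30 to 0.59 FPKM to 3.31 to 3.74 FPKM (2.88, SE 0.225, adjusted p = 1.07e-06). Type IX rose in all its chains, in Ctrl by 2.75 for Col9a1, 2.69 for Col9a2 and 1.29 for Col9a3, and in NAD+ by 2.32, 3.03 and 0.89. The FACIT gene Col22a1, tested only through its differentiation values, rose from at most 0.09 FPKM to at least 0.83 FPKM. Col20a1 rose from at most 0.24 FPKM to at least 1.00 FPKM. Col11a1 rose by 1.11 in Ctrl and 0.68 in NAD+, and Col27a1 by 1.45 and 1.25.

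In the basement membrane class, Col4a5 rose by 2.07 (SE 0.126) in Ctrl and 2.19 in NAD+, Col4a6 by 2.64 (SE 0.158) and 2.49, and Col4a2 by 1.29 (SE 0.203) and 1.00. Col4a1 did not pass in either group (0.44, adjusted p = 0.135, and 0.32, adjusted p = 0.263). The ratio of Col4a1 to Col4a2 FPKM was 3.71 ± 0.773 in proliferating and 1.97 ± 0.112 in differentiation Ctrl (SD, n = 3), and the ratio of Col4a5 to Col4a1 was 1.32 ± 0.474 and 3.98 ± 0.442. Col4a3 passed in NAD+ (0.99, adjusted p = 0.0170) but not in Ctrl (adjusted p = 0.158), at levels of at most 0.30 FPKM, and the call was lost without proliferating NAD+ replicate 3 (adjusted p = 0.0649). Col6a1 rose by 2.05 in Ctrl and 1.68 in NAD+, Col6a2 by 2.52 and 2.09, and Col23a1 by 2.49 and 2.93. Col8a1 was at most 0.03 FPKM in proliferating samples and 0.20 to 0.41 FPKM in differentiation samples, Col8a2 at most 0.07 and 0.17 to 0.36 FPKM, and Col7a1 0.14 to 0.18 and 0.34 to 0.65 FPKM. These 3 passed in both groups, but Col8a1 and Col8a2 reached the minimum for testing only through the differentiation samples.

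The type V genes moved the other way. Col5a3 was at 4.19 to 6.55 FPKM in proliferating and 1.10 to 1.78 FPKM in differentiation samples and fell by 2.03 (SE 0.171) in Ctrl and 1.70 in NAD+. Col5a2 fell by 1.05 (SE 0.096) in Ctrl and 0.90 in NAD+, whereas Col5a1, the obligate partner in most type V trimers, did not pass (-0.22, adjusted p = 0.284, and 0.032, adjusted p = 0.885). Col12a1, a FACIT gene, fell by 1.38 and 1.23, and Col26a1 by 1.01 in Ctrl and 0.49 in NAD+; the latter call was lost under median-ratio scaling (-0.27, adjusted p = 0.240) and when any 1 of the NAD+ samples other than differentiation replicate 1 was left out (adjusted p from 0.0606 to 0.105). Col16a1 fell by 0.34 in NAD+ (adjusted p = 0.0377), but the value was -0.06 under median-ratio scaling and 0.03 under quantile normalization, and it did not pass in Ctrl (adjusted p = 0.827). The Col16a1 call was also lost without any 1 of the same 5 samples (adjusted p from 0.0625 to 0.105). Col6a3 fell in NAD+ (-1.40, adjusted p = 0.0359), but without proliferating NAD+ replicate 1, which held 0.87 FPKM, its mean was under the minimum for testing, and the call was lost without any 1 of the differentiation NAD+ samples (adjusted p from 0.0518 to 0.0946). Relative to the median of all genes, the values in NAD+ were -0.29 for Col26a1 and -0.13 for Col16a1.

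Col18a1 rose by 0.80 in Ctrl (SE 0.255, adjusted p = 0.0199, limma) and fell by 0.97 in NAD+ (SE 0.255, adjusted p = 0.00695). Its Ctrl samples lay at 0.48 to 0.62 FPKM in proliferating and 0.78 to 1.54 FPKM in differentiation conditions, and its NAD+ samples at 1.15 to 2.07 and 0.70 to 0.79 FPKM. The Ctrl call was lost without differentiation Ctrl replicate 2 (adjusted p = 0.0841) and without proliferating Ctrl replicate 1 (adjusted p = 0.0598), and under quantile normalization (0.62, adjusted p = 0.0641). Between the conditions the marker lists also differed, with Gfap at 17.5 to 20.2 FPKM in proliferating Ctrl and 546 to 642 FPKM in differentiation Ctrl; the part of this in the collagen values was not tested.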

How the data were processed

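Libraries were made with the NEBNext Ultra kit. With Hisat2 v2.0.5 the authors mapped the reads (build mm10), and with FeatureCounts v2.0.1 they counted the uniquely mapped ones and deposited FPKM values in a table per condition, rounded to 0.01. The program that gave FPKM is not given in the sources used here. The tables also hold the authors' own fold changes (ratio and log2), p-values and q-values, which were not used. Groups follow the sample titles, since a label field calls all 12 samples untreated.

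log2(FPKM + 0.1) of genes with a mean of at least 0.1 FPKM over the samples of a fit was tested with limma 3.58.1 in R 4.3.3 (empirical Bayes with trend, two-sided, Benjamini-Hochberg over all tested genes): 6 samples for NAD+ in each condition, and all 12 for the other comparisons. The code was tested on simulated data. Collagen genes called in any comparison or with a group mean of at least 1 FPKM were named, the others summarised. The members, gene lists and tests were chosen with earlier results of these data known. Classes and marker lists were set by textbook knowledge, and some marker genes are not reported here. Replicate numbers were not used as pairs. The alternatives tried were other added values, filters and scalings, a replicate block, leaving out samples and the cutoff of the study. Positions are from GENCODE M21. Tables were made with Python 3.11.15, pandas 2.3.3 and matplotlib 3.10.9.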

Additional observations from a re-analysis of the deposited data

Results flagged for a closer look

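Col18a1 met the criterion for opposite movement under the same contrast. From proliferating to differentiation conditions, all 3 Ctrl samples lay above the proliferating Ctrl samples and all 3 NAD+ samples lay below the proliferating NAD+ samples. The test of the difference between these shifts, the same contrast as the NAD+ effect under differentiation conditions minus that under proliferating conditions, gave -1.76 on the log2 scale (SE 0.36, adjusted p = 0.0666, limma over all genes), so it did not pass the correction.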

How the results depend on the processing

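The 9 calls of NAD+ under differentiation conditions became 2 by the cutoff of the study, and between 3 and 7 when 1 sample was left out (3 without Ctrl replicate 1, 4 without Ctrl replicate 3). Over all genes tested, 1357 calls became 795 by that cutoff and between 328 and 719 with 1 sample left out. Under proliferating conditions the count of 0 became 1 (Col9a2) with 1 added before log2 or with quantile normalization, 4 by the cutoff of the study, and stayed at 0 when 1 sample was left out. Over all genes, 27 calls became 34 with 1 added, 59 with quantile normalization and 559 by that cutoff. With 1 sample left out they became between 0 and 36. The 25 calls between conditions in NAD+ became 16 with a minimum mean of 1 FPKM, where fewer genes were tested. Over all genes, 11386 calls became 9031. Col16a1 in that comparison turned from -0.34 to 0.03 under quantile normalization (adjusted p = 0.832). Where no other reason is given, the cause was not tested. With the replicate number as a block, NAD+ gave 0 calls under proliferating conditions and 7 under differentiation conditions, of which 6 were among the 9. Col4a6, Col5a2 and Col11a1 were lost and Col6a2 was gained. Over all genes the same block gave 0 calls under proliferating and 758 under differentiation conditions. The block gave 0 calls for the difference of the NAD+ effect between conditions. For differentiation against proliferating conditions, the block was coded so that the fit compared fitted levels of replicate 1, not group means. It gave 22 calls in Ctrl, of which 21 were called without it, and 21 in NAD+, all called without it. Lost were Col18a1 in Ctrl (0.67, adjusted p = 0.18, limma) and, in NAD+, Col12a1 (-0.94, adjusted p = 0.0598) and Col4a3 (1.09, adjusted p = 0.0793). Col26a1 (-0.52, adjusted p = 0.162) and Col16a1 (-0.04, adjusted p = 0.815) were also lost in NAD+. Because a different quantity was compared, these lost calls do not show how the group means depend on blocking. Same-numbered samples correlated at 0.111, 0.0215 and 0.0529 under proliferating and 0.041, 0.0432 and 0.0257 under differentiation conditions around their group means. Under differentiation conditions every Ctrl sample correlated best with the NAD+ sample of its own number, and under proliferating conditions Ctrl replicate 3 did not.

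The depth behind each value is unknown, values are rounded to 0.01 FPKM, and 3 samples per group limit the precision. A gene that did not pass is not shown to be unchanged.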
